A study of Mus musculus with 12 samples.

Results

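Sgk1, the gene of serum- and glucocorticoid-regulated kinase 1, was followed together with 8 genes around it in pools of retinal cells picked after optic nerve crush. The 9 genes are Sgk1 itself, its relative Sgk3, its substrate Nedd4l, the glucocorticoid receptor gene Nr3c1, and Fkbp5, Tsc22d3, Per1, Ddit4 and Zbtb16, which glucocorticoids are known to induce. They were picked by name out of the 54232 genes of the count table, and Sgk1 was picked because its level had already been seen to differ between the viruses at day 7. All 9 were found in the table and all 9 passed the filter on low counts, which left 14985 genes to test.

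The cells came from adult male wild-type (WT) mice whose optic nerve had been crushed (ONC), an injury that cuts the axons of retinal ganglion cells. An AAV2 virus had been injected into the vitreous, and it carried Olig1 or, as the control, green fluorescent protein (GFP). OLIG1 is a helix-loop-helix protein known for its part in making oligodendrocytes. There were 4 groups of 3 libraries: AAV-Olig1 with 14 days after the crush, AAV-GFP with 14 days, AAV-Olig1 with 7 days and AAV-GFP with 7 days. A virus time of 14 days is recorded in the labels of all libraries, those taken 7 days after the crush included. Cells were bound to beads through CD90.2 (Thy1), picked as fluorescent ganglion cells with a Unipick device, pooled, and amplified with the SMART-Seq HT kit over 20 PCR cycles. The labels give the cells per pool in different ways, from 10 to 20, and do not say how many animals gave a pool. The promoter that drove each virus is not given in the sources used here. No label says that replicates came from separate animals, so each p-value measures the spread among these libraries alone, which may be technical.

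Total counts per library ran from 12534515 to 27602459, and 10129 to 17244 genes had at least 1 count. The fewest genes were in GFP day 14 replicate 1. Levels are CPM, counts scaled to the total of the library. Where a gene had 0 counts, its true level may be as high as 3 counts (0.109 to 0.239 CPM across libraries), for counting error only. Olig1 stood at 56.4, 520 and 120 CPM in Olig1 day 14 libraries, against 0, 0.0362 and 0.251 CPM in GFP day 14 libraries, and at 1030, 249 and 723 CPM in Olig1 day 7 libraries, against 0.32, 0 and 0.351 CPM in GFP day 7 libraries. Markers of the labelled cell type were uneven between the pools. At day 14, 12 ganglion cell markers summed to 109, 2710 and 93.9 CPM with Olig1 and 45.8, 28.2 and 58.0 CPM with GFP. At day 7 they summed to 1160, 3040 and 1720 CPM with Olig1 and 24.1, 252 and 29.7 CPM with GFP. Pools cannot tell fewer ganglion cells from less marker RNA per cell. Pou4f3 was at 0 counts in every library, Isl2 was at 0 in all libraries but those of GFP day 14, Pou4f2 was at 0 in all libraries of both GFP groups, and Pou4f1 and Slc17a6 were at 0 in all GFP day 14 libraries. The pools held 4380 to 57100 CPM of 12 rod markers in 8 libraries and 47000 to 146000 CPM of 12 Müller glia markers in all 12. Markers of microglia and macrophages reached 2660 CPM in GFP day 7 replicate 3, 1350 CPM in Olig1 day 7 replicate 3, and 6380 and 8970 CPM in GFP day 14 replicates 2 and 3, against 0.586 to 47.3 CPM elsewhere.

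Glucocorticoids enter cells and bind the receptor encoded by Nr3c1, which is held ready by heat shock protein 90 and its partners. The bound receptor moves to the nucleus and acts on genes that carry its response element, a palindrome of the hexamer AGAACA. SGK1 is a kinase made in response to steroids and to cell stress, switched on through the lipid-kinase pathway by mTOR complex 2 and PDK1, and known for phosphorylating NEDD4L, NDRG1 and forkhead factors. In the retina the receptor is best known from Müller glia, and in the chick retina glucocorticoids raise glutamine synthetase (Glul), the enzyme by which these glia clear glutamate.

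The promoters of these genes that hold the receptor's hexamer are shown so that its place in them can be read. RefSeq promoters on GRCm38.p6, 250 bases before to 50 after a transcription start, were at hand for 5 of the genes: Sgk1 with 6 starts, Tsc22d3 with 3, Per1 with 2, and Fkbp5 and Ddit4 with 1 each. Of these 13 windows, 4 held the hexamer AGAACA on either strand, 3 of Sgk1 and 1 of Tsc22d3. The hexamer stood in 19.0% of the 32817 promoters of the table. Capitals mark the hexamers, which read TGTTCT where they lie on the other strand.
Sgk1 start 1, chr10:21881934-21882233, plus strand: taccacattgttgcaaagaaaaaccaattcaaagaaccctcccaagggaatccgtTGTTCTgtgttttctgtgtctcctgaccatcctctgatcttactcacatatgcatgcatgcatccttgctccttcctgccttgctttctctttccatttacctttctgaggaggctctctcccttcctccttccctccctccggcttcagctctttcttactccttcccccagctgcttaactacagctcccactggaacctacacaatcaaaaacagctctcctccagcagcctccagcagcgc
Sgk1 start 4, chr10:21991973-21992272, plus strand: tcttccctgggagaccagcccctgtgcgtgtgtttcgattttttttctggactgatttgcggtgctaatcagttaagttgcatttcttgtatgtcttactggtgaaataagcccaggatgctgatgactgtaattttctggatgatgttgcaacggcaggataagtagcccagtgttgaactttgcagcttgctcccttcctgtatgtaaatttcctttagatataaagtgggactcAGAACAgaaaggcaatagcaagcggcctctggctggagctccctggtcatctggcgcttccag
Sgk1 start 5, chr10:21993640-21993939, plus strand: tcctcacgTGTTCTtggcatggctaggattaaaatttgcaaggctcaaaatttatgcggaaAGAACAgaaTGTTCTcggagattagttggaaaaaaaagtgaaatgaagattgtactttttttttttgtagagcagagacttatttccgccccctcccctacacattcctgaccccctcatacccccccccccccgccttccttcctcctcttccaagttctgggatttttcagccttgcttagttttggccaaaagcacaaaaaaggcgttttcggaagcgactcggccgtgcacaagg
Tsc22d3 start 3, chrX:140600473-140600772, minus strand: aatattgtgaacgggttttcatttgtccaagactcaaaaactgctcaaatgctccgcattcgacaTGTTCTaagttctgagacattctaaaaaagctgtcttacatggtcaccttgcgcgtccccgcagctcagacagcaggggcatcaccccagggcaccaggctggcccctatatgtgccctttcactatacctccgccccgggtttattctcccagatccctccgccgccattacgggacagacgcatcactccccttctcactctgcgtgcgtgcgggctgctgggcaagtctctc

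Sgk1 start 5 held 3 hexamers, and a pair of them formed the full palindromic element, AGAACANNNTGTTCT, written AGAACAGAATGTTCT at chr10:21993701-21993715. Its first base lay 189 bases before start 5 and 965 before start 6. That full element stood in 3 of the 32817 promoters, or 0.00914%, and in none of the other 12 windows searched. E boxes (CANNTG), the letters that basic helix-loop-helix factors such as OLIG1 bind, stood in 9 of the 13 windows and in 72.3% of all promoters. These are matches of letters in a window, and the counts per gene do not tell which start was used.

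Sgk1 (ENSMUSG00000019970, GRCm38 chr10:21882184-21999903, plus strand) stood at 110, 25.2 and 58.2 CPM in Olig1 day 14 libraries, against 105, 61.5 and 87.8 CPM in GFP day 14 libraries (replicates 1 to 3 in each case). At day 7 it stood at 7.66, 3.27 and 6.08 CPM in Olig1 libraries, against 455, 463 and 128 CPM in GFP libraries. The day 14 groups overlapped, while at day 7 every Olig1 library lay below every GFP library, as in 9.01% of all genes tested. By mean, the order was GFP day 7 (349 ± 191 CPM, SD, n = 3), GFP day 14 (84.7 ± 21.8), Olig1 day 14 (64.4 ± 42.7) and Olig1 day 7 (5.67 ± 2.23). Of the neighbours in this order, GFP day 14 and Olig1 day 14 did not differ beyond their spread. The libraries of the other neighbours did not overlap, as in 10.5% of all genes tested in GFP pools and 5.55% in Olig1 pools.

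**Figure D1:**
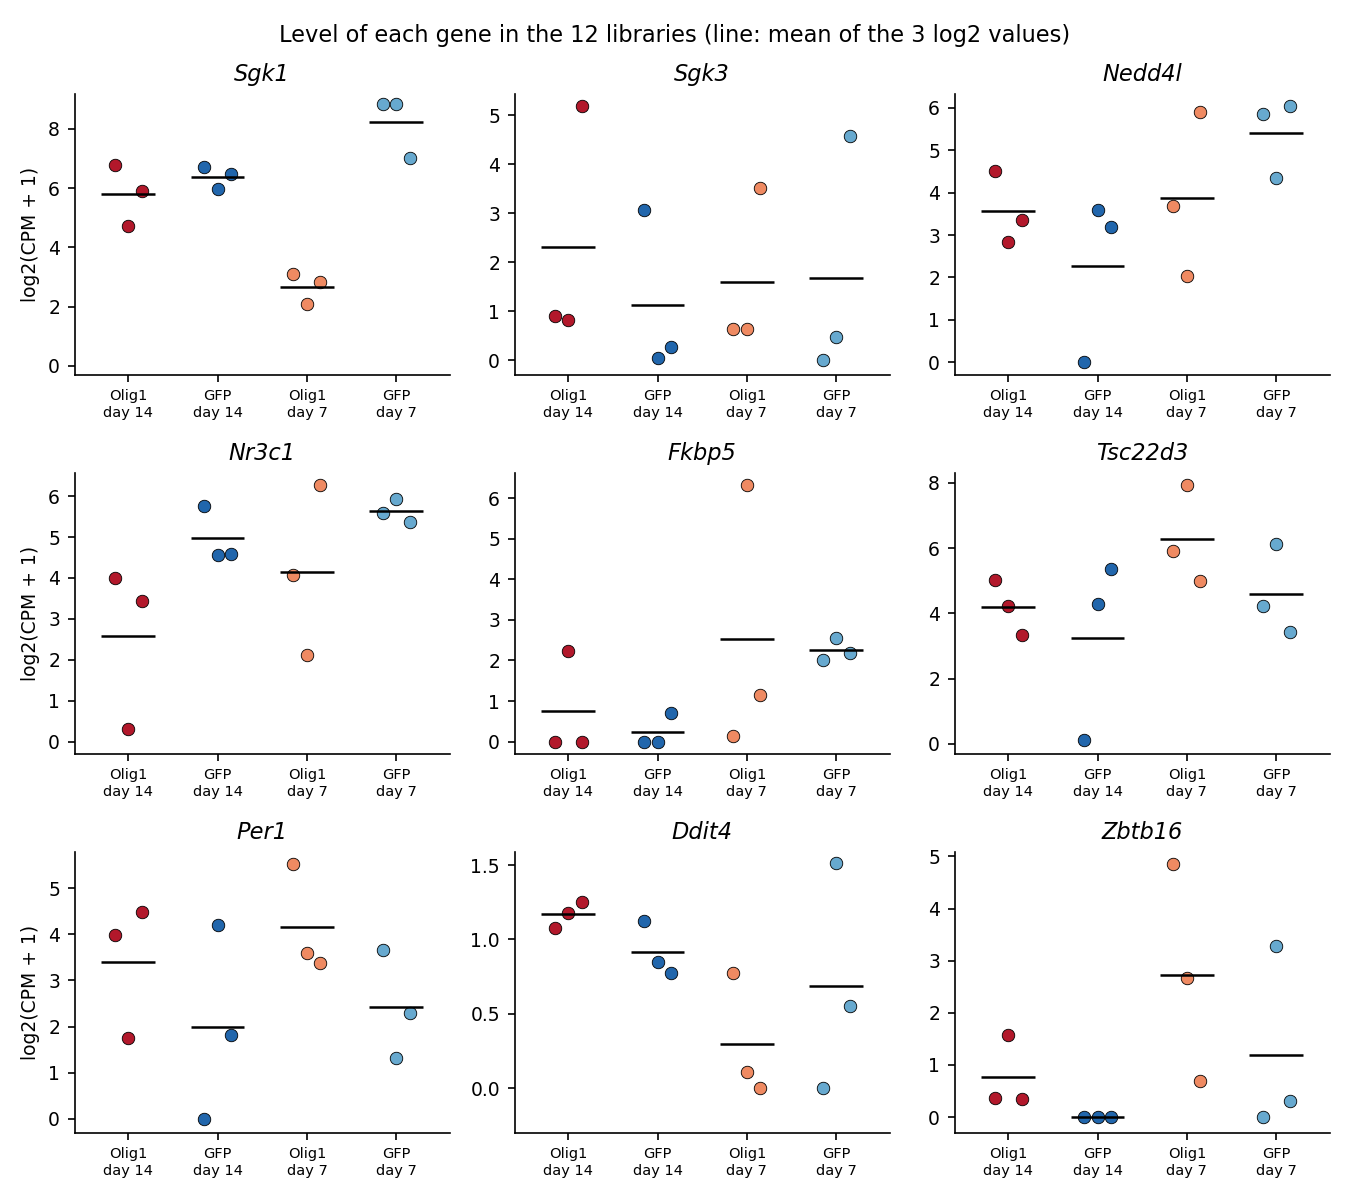
Level of each of the 9 genes, as log2(CPM + 1), in the 12 libraries. Points are libraries, lines are the mean of the 3 log2 values, and groups run Olig1 day 14, GFP day 14, Olig1 day 7 and GFP day 7. The 3 Olig1 day 7 libraries of Sgk1 sit at 3.27 to 7.66 CPM, below all 9 others, and no other gene has a group that lies wholly below the remaining libraries. Sgk1 was chosen for its difference at day 7, so this is a description.

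At day 14, the comparison not used to choose Sgk1, its log2 fold change (Olig1 over GFP) was -0.45 ± 0.65 (SE). This did not pass the test (edgeR quasi-likelihood, Benjamini-Hochberg over all genes tested, adjusted p = 0.996, range 0.673 to 1.00 over 14 alternatives). At day 7 the log2 fold change was -5.85 ± 0.80, given as a description since this contrast chose the gene. The folds below are on the same log2 scale and the threshold on the adjusted p is 0.05 throughout. Leaving out the 4 libraries rich in microglia markers gave -6.21 at day 7, and leaving out each library in turn gave -6.26 to -5.45.

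Between the days Sgk1 took opposite directions under the viruses, again as a description because the day 7 libraries are the same. In Olig1 pools the day 14 level was above the day 7 level by 3.66 ± 0.72, with no overlap of libraries, as in 5.55% of all genes tested. In GFP pools day 14 was below day 7 by a log2 fold change of -1.73 ± 0.67, also with no overlap, as in 10.5% of all genes tested. Neither change passed the threshold with edgeR. The difference between these changes was 5.40 ± 0.98.

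Low Sgk1 went with high ganglion cell markers in these pools, as a description. Of the 4 libraries that show it, 3 are the Olig1 day 7 group, which was used to choose Sgk1. The 4 libraries lowest in Sgk1 were Olig1 day 7 replicates 2, 3 and 1 and Olig1 day 14 replicate 2, at 3.27, 6.08, 7.66 and 25.2 CPM. They were also the 4 highest in the summed ganglion cell markers, at 3040, 1720, 1160 and 2710 CPM, and the lowest 4 in rod markers, at 597 to 1290 CPM. In the other 8 libraries Sgk1 ran from 58.2 to 463 CPM, ganglion cell markers from 24.1 to 252 CPM and rod markers from 4380 to 57100 CPM. Among these 8, GFP day 7 replicate 2 had both the most Sgk1 (463 CPM) and the most ganglion cell markers (252 CPM). Müller glia marker sums overlapped between these sets, at 47000 to 127000 CPM in the 4 libraries and 58500 to 146000 CPM in the other 8. Single markers could differ from the sum. At day 7 Glul, in the sum, stood at 245, 936 and 543 CPM with Olig1, against 3770, 5080 and 4670 CPM with GFP. Clu, also in it, stood there at 4670, 6750 and 5700 CPM with Olig1, against 19400, 40200 and 15600 CPM with GFP. Glul is named here for its small unadjusted p at day 7 and Clu for its likeness to Sgk1. The pair was therefore picked by its values and does not stand for the sum. Levels of the other markers in the sum are not given singly here. The lowest sums, 47000 and 53200 CPM, were in Olig1 day 7 replicates 1 and 3, and the highest, 146000 CPM, in GFP day 7 replicate 2, which had the most Sgk1. Olig1 day 7 replicate 2, with the least Sgk1, had 127000 CPM. The part of cell makeup in the Sgk1 difference was not tested. In pools, fewer cells of a type and less RNA per cell cannot be told apart.

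**Figure D2:**
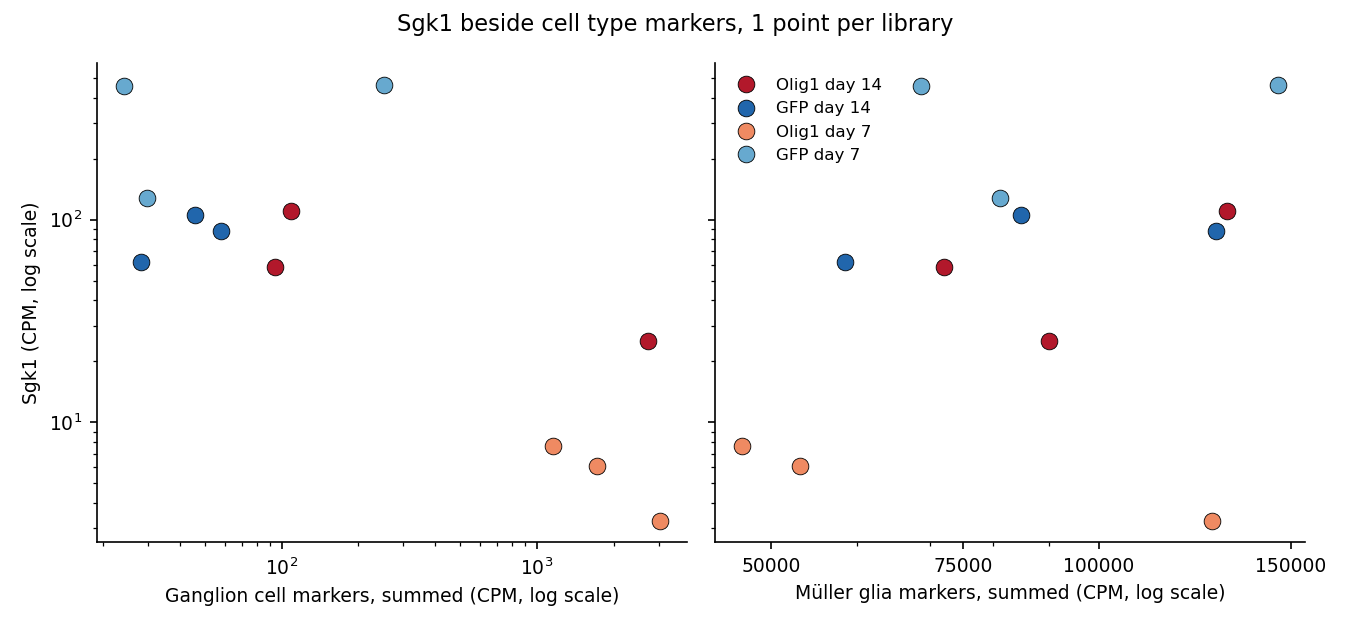
Sgk1 (CPM, log scale) against the summed CPM of 12 ganglion cell markers (left) and of 12 Müller glia markers (right), both on log scales, 1 point per library coloured by group. The 4 libraries at 1160 CPM or more of ganglion cell markers have the 4 lowest Sgk1 values, 3.27 to 25.2 CPM, while the Müller glia sums of these 4 (47000 to 127000 CPM) overlap those of the other 8 (58500 to 146000 CPM).

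Compared per kilobase of exon, Sgk1 was the most abundant of the 9 genes in 9 of the 12 libraries and above Sgk3 in all 12. It came in the fifth place in each of the 3 Olig1 day 7 libraries, at 1.56, 0.667 and 1.24 CPM per kilobase. There Tsc22d3 was first in replicates 1 and 2, at 13.6 and 56.0 CPM per kilobase, and Nr3c1 in replicate 3, at 9.99 CPM per kilobase.

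The genes whose pattern was most like that of Sgk1 over the 12 libraries were Plekhb1 (0.907), Senp3 (0.906), Mfge8 (0.905), Clu (0.904) and Cxcl16 (0.903). The values are Pearson correlations of log2(CPM + 1). Genes named only as predicted models or clones were left out of this order, and 12477 genes were compared. The correlations describe these 12 libraries, which differ in the sums of cell type markers given above. Their genes share each library's depth and composition. The day 7 libraries from which Sgk1 was chosen are among the 12. With CPM on TMM-scaled library sizes Clu stood at place 25 of the order, and the other 4 were the first 4. Clu is also among the Müller glia markers summed above. Mfge8, a secreted bridge for the uptake of dying cells, stood at 388, 143 and 338 CPM in Olig1 day 14 libraries, against 524, 175 and 104 CPM in GFP day 14 libraries. Its day 7 values were 108, 24.3 and 61.4 CPM with Olig1, against 1070, 665 and 667 CPM with GFP. Cxcl16, a membrane-bound chemokine, stood at 45.6, 40.1 and 46.8 CPM in Olig1 day 14 libraries, against 27.7, 55.6 and 39.1 CPM in GFP day 14 libraries. At day 7 Cxcl16 stood at 11.3, 4.15 and 14.5 CPM with Olig1, against 82.2, 89.2 and 83.4 CPM with GFP. The correlations of the other 8 chosen genes with Sgk1 ran from 0.443 (Nr3c1) and 0.378 (Ddit4) through 0.213 (Nedd4l) and -0.078 (Sgk3) to -0.399 (Zbtb16), among 12477 genes compared.

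At day 14, 0 of the 9 genes passed the test between Olig1 and GFP, against 6 genes in all (0.04%). At day 7, 1 of the 9 passed it, which is Sgk1, the gene chosen from that contrast, and 34 of 14985 genes (0.227%) passed there. The adjusted p-values of the other 8 ran from 0.438 to 1.00 at day 14 and from 0.521 to 0.929 at day 7. At an unadjusted p under 0.05, 1 of the 9 stood out at each day (Zbtb16 at day 14 and Sgk1 at day 7), against 10.4% of all genes at day 14 and 13.9% at day 7. With DESeq2 the counts of members at the adjusted threshold were again 0 at day 14 and 1 at day 7, where it passed 5.38% and 7.17% of all genes. With limma voom, which passed 0.367% and 2.87% of all genes, they were 0 and 1 too. Without GFP day 7 replicate 1, 0 of the 9 passed at day 7.

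**Figure D3:**
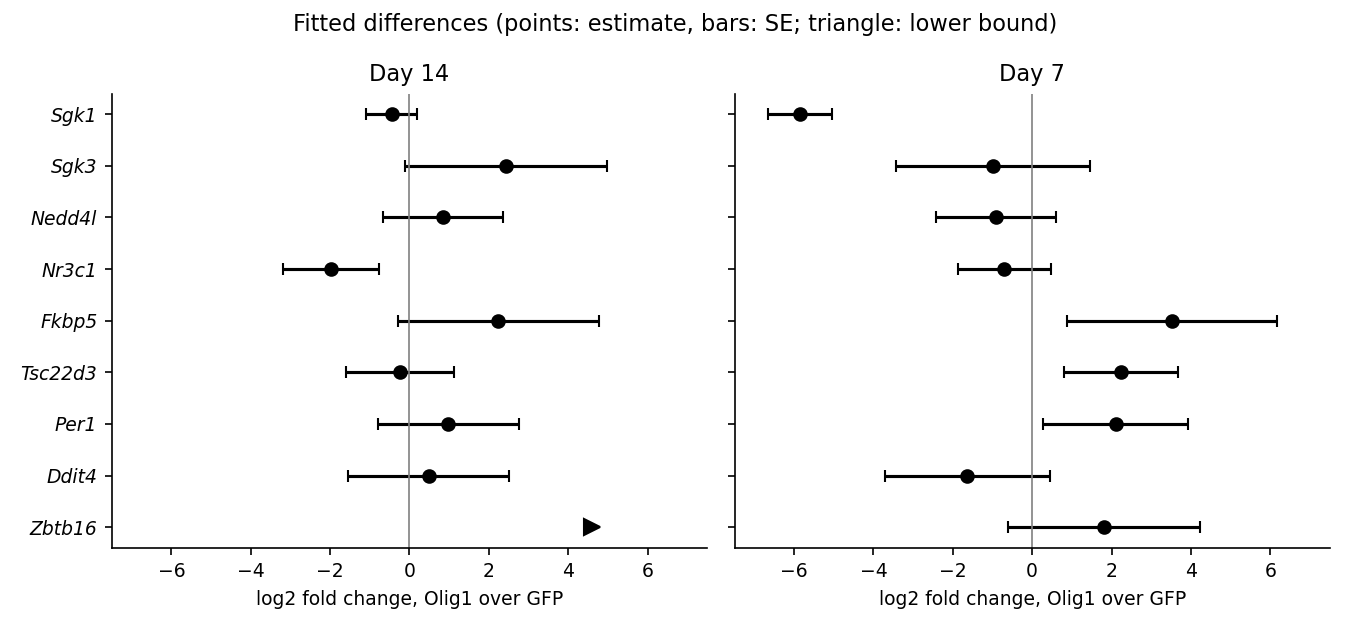
Log2 fold change of each gene, Olig1 over GFP, at day 14 (left) and day 7 (right). Points are estimates of the edgeR fit, bars are 1 SE, and the triangle is the lower bound for Zbtb16, which had 0 counts in the GFP day 14 libraries. Sgk1 at day 7 is at -5.85, and the other 8 lie between -1.64 and 3.52. Sgk1 was chosen from this contrast, so its place there is a description.

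Among the kinases and their target, Sgk3 (ENSMUSG00000025915, chr1:9798107-9900845, plus strand), a relative that binds endosomal lipid, was high in 1 library of each group and near 0 in the rest. It stood at 0.87, 0.77 and 35.4 CPM in Olig1 day 14 libraries, against 7.33, 0.04 and 0.21 CPM in GFP day 14 libraries. At day 7 it stood at 0.54, 0.56 and 10.5 CPM with Olig1, against 0, 0.38 and 23.0 CPM with GFP. The groups overlapped at both days, with log2 fold changes of 2.44 ± 2.55 at day 14 (adjusted p = 0.95) and -0.98 ± 2.44 at day 7 (adjusted p = 0.929). Each direction rested on 1 library: the fold was -1.43 at day 14 without Olig1 replicate 3 and 4.07 at day 7 without GFP replicate 3.

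Nedd4l (ENSMUSG00000024589, chr18:64887705-65217828, plus strand), the ubiquitin ligase that removes the epithelial sodium channel and that SGK1 restrains, stood at 22, 6.15 and 9.20 CPM in Olig1 day 14 libraries, against 0, 11.1 and 8.10 CPM in GFP day 14 libraries. Its day 7 levels were 11.9, 3.11 and 58.8 CPM with Olig1, against 56.7, 19.5 and 64.8 CPM with GFP. The viruses overlapped at both days, with log2 fold changes of 0.84 ± 1.51 at day 14 (adjusted p = 1.00) and -0.92 ± 1.51 at day 7 (adjusted p = 0.872). In GFP pools every day 14 library lay below every day 7 library, a log2 fold change of -2.42 ± 1.58 that did not pass the test (adjusted p = 0.701), and 10.5% of all genes showed such a separation.

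Nr3c1 (ENSMUSG00000024431, chr18:39410545-39519421, minus strand), the receptor, was detected in all 12 libraries. At day 14 it stood at 15.1, 0.244 and 9.89 CPM with Olig1, against 53.4, 22.7 and 23.2 CPM with GFP, so that the groups did not overlap. The log2 fold change of -1.97 ± 1.21 did not pass the test (adjusted p = 0.692), and 4.12% of all genes were separated in this direction at day 14. At day 7 the values were 15.7, 3.35 and 76.8 CPM with Olig1, against 47.3, 60.5 and 40.0 CPM with GFP. They overlapped because of Olig1 replicate 3, which was the highest of all 12 libraries and rich in microglia markers (-0.70 ± 1.18, adjusted p = 0.877). Without that library the log2 fold change at day 7 was -2.29.

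Fkbp5 (ENSMUSG00000024222, chr17:28399094-28517527, minus strand), a co-chaperone that lowers the affinity of the receptor for its hormone, was at 0 counts in 4 libraries. It stood at 0, 3.71 and 0 CPM in Olig1 day 14 libraries, against 0, 0 and 0.63 CPM in GFP day 14 libraries, and at 0.11, 78.6 and 1.22 CPM in Olig1 day 7 libraries, against 3.04, 4.87 and 3.57 CPM in GFP day 7 libraries. The GFP day 7 libraries were close together, while Olig1 day 7 replicate 2 was above and the other 2 Olig1 day 7 libraries below all of them. The log2 fold changes were 2.24 ± 2.54 at day 14 (adjusted p = 0.963) and 3.52 ± 2.65 at day 7 (adjusted p = 0.606). Both turned on 1 library, with -5.49 at day 14 and -2.66 at day 7 without Olig1 replicate 2.

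Tsc22d3 (ENSMUSG00000031431, chrX:140539528-140600659, minus strand) encodes the glucocorticoid-induced leucine zipper, which restrains inflammatory transcription factors. Its levels were 31.8, 17.6 and 9.10 CPM in Olig1 day 14 libraries, against 0.0784, 18.7 and 40.0 CPM in GFP day 14 libraries, and 59.1, 243 and 31.0 CPM in Olig1 day 7 libraries, against 17.8, 69.4 and 9.77 CPM in GFP day 7 libraries. The highest library was again Olig1 day 7 replicate 2. The log2 fold change was -0.24 ± 1.37 at day 14 (adjusted p = 1.00) and 2.24 ± 1.43 at day 7 (adjusted p = 0.521), and it was 0.24 at day 7 without that library. At day 14 the sign turned, to 1.16, without GFP replicate 3.

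Per1 (ENSMUSG00000020893, chr11:69095217-69109960, plus strand), a clock gene that glucocorticoids induce directly, stood at 14.9, 2.36 and 21.2 CPM in Olig1 day 14 libraries, against 0, 17.3 and 2.51 CPM in GFP day 14 libraries. At day 7 Per1 stood at 44.8, 11 and 9.46 CPM with Olig1, against 11.7, 1.48 and 3.92 CPM with GFP. The groups overlapped at both days, with 0.98 ± 1.77 at day 14 (adjusted p = 1.00) and 2.11 ± 1.83 at day 7 (adjusted p = 0.675). The highest Per1 level was in Olig1 day 7 replicate 1, not in replicate 2, where Fkbp5 and Tsc22d3 were highest.

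Ddit4 (ENSMUSG00000020108, chr10:59949669-59951834, minus strand), whose product REDD1 holds back mTOR complex 1, was near the floor throughout, with 205 counts over the 12 libraries. It ran from 1.11 to 1.38 CPM in Olig1 day 14 libraries and from 0.71 to 1.18 CPM in GFP day 14 libraries. At day 7 it stood at 0.71, 0.08 and 0 CPM with Olig1, against 0, 1.86 and 0.47 CPM with GFP. The log2 fold changes were 0.48 ± 2.03 at day 14 (adjusted p = 1.00) and -1.64 ± 2.08 at day 7 (adjusted p = 0.810), and the sign at day 7 rested on GFP replicate 2 (0.29 without it).

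Zbtb16 (ENSMUSG00000066687, chr9:48654297-48836222, minus strand), a zinc finger repressor that glucocorticoids raise strongly in many cells, had 0 counts in all 3 GFP day 14 libraries. In Olig1 day 14 libraries it stood at 0.29, 2.00 and 0.27 CPM, each above the limit that a count of 0 allows there. With 60 counts against 0, this is at least 24.1-fold higher with Olig1 (against 3 counts over the GFP group), a difference that did not pass the test (adjusted p = 0.438). Without Olig1 day 14 replicate 2 the bound was 7.17. At this day 7.78% of all genes had their Olig1 libraries above all GFP libraries. At day 7 Zbtb16 stood at 27.9, 5.35 and 0.61 CPM with Olig1, against 0, 8.76 and 0.23 CPM with GFP, overlapping, with 1.81 ± 2.43 (adjusted p = 0.827). In GFP day 14 replicate 1, the library with the fewest genes detected, Nedd4l, Fkbp5, Per1 and Zbtb16 were all at 0 counts and Tsc22d3 at 0.0784 CPM, while Sgk1 stood at 105 CPM and Nr3c1 at 53.4 CPM.

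The day contrasts gave 0 of the 9 genes past the threshold with edgeR, in Olig1 pools and in GFP pools, against 0.0334% and 0% of all genes. In Olig1 pools 11.8% of all genes had an unadjusted p under 0.05, and 1 of the 9, Sgk1. In GFP pools 1540 genes (10.3%) did, 2 of the 9 among them, Sgk1 and Zbtb16. DESeq2 put 1 of the 9 past the threshold in Olig1 pools (4.53% of all genes), which was Sgk1, and 1 in GFP pools (4.77% of all genes), which was Zbtb16 (adjusted p = 0.0148). With limma voom 0 of the 9 passed in either. Zbtb16 had 0 counts at day 14 against 164 at day 7 in GFP pools and was at least 77.8-fold lower, a bound that came to 2.87 without GFP day 7 replicate 2. Fkbp5 in GFP pools was lower in every day 14 library than in every day 7 library (-3.57 ± 2.68, adjusted p = 0.790), as were 10.5% of all genes. Ddit4 in Olig1 pools was higher in every day 14 library than in every day 7 library (2.47 ± 2.14, adjusted p = 0.733), a separation seen in 5.55% of all genes. In the test of whether the Olig1 minus GFP difference itself differed between the days, the other 8 genes had adjusted p-values of 0.595 to 0.976, and 0% of all genes passed with edgeR (1484 genes, 9.9%, at an unadjusted p under 0.05). DESeq2 passed 3.89% of all genes there and 1 of the 9, Sgk1. Sgk1 was chosen from its day 7 levels, and day 7 libraries are part of each of these contrasts. Its results in them are therefore a description.

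Of 25 other genes that glucocorticoids are known to induce, 21 could be tested and 0 passed with edgeR in either direction at day 14 or day 7. Their median log2 fold change was 0.25 at day 14 (11 above 0 and 10 below) and -0.46 at day 7 (8 above and 13 below), beside 0.09 and -0.03 for all genes tested. At an unadjusted p under 0.05 there were 2 of the 21 at day 14 and 4 at day 7, beside 10.4% and 13.9% of all genes. DESeq2 and voom passed 0 of the 21 at day 14 and 2 each at day 7. With DESeq2 these were Cdkn1a higher and Hif3a lower (Hif3a is named after its values were seen). With voom they were Cdkn1a higher and Glul lower. Of all genes, DESeq2 passed 5.38% at day 14 and 7.17% at day 7, and voom passed 0.367% and 2.87%. Pdk4, Angptl4 and Plin4 had 0 to 3 counts in all and Map3k6 had 106, and these 4 were not tested. Between the days the median of the 21 was -0.76 in Olig1 pools (8 above 0 and 13 below), beside -0.01 for all genes. In GFP pools it was -1.24 (7 above and 14 below), beside -0.14. An unadjusted p under 0.05 was seen for 5 of the 21 in Olig1 pools and 0 in GFP pools, beside 11.8% and 10.3% of all genes. With edgeR 0 of the 21 passed in either. The 5 gene lists described here were drawn up with earlier results of these data known, and named genes are the 3 of a list with the smallest unadjusted p at each day.

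Cdkn1a, the cell cycle inhibitor p21, stood at 124, 260 and 156 CPM in Olig1 day 7 libraries, against 0.373, 1.42 and 0.234 CPM in GFP day 7 libraries. The groups did not overlap, as in 9.4% of all genes in this direction, and the log2 fold change of 8.32 ± 2.21 did not pass the test (adjusted p = 0.179). At day 14 Cdkn1a was at 0.122 to 3.59 CPM with Olig1 and at 0, 5.36 and 0 CPM with GFP. Glul, glutamine synthetase, stood at 245, 936 and 543 CPM in Olig1 day 7 libraries, against 3770, 5080 and 4670 CPM in GFP day 7 libraries. These groups too did not overlap, as in 9.01% of all genes in this direction (-2.56 ± 0.69, adjusted p = 0.178). Its day 14 levels, 3550, 1250 and 3660 CPM with Olig1 against 3200, 1120 and 490 CPM with GFP, overlapped. Glul belongs to the Müller glia markers as well. Cebpb, an acute-phase transcription factor, had 2.94 ± 1.13 at day 7 (adjusted p = 0.282) through Olig1 replicate 2 at 274 CPM, and -0.13 without it.

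At day 14 the inhibitor of NF-kappa-B, Nfkbia, stood at 24.3, 0.326 and 14.7 CPM with Olig1, against 69.0, 116 and 80.7 CPM with GFP. The groups did not overlap, as in 4.12% of all genes in this direction, and -2.81 ± 1.04 did not pass the test (adjusted p = 0.438). Dusp1, a phosphatase that switches off MAP kinases, had 1.71 ± 0.89 at day 14 (adjusted p = 0.552), with 20.3, 315 and 102 CPM in Olig1 libraries against 55.1, 37.9 and 40.4 CPM in GFP libraries. Sult1a1, a sulfotransferase, had 1 count with Olig1 against 363 with GFP at day 14, a ratio of GFP over Olig1 of 301. Its 95% counting interval, 53.8 to 11900, leaves out the spread between libraries. The difference did not pass the edgeR test (adjusted p = 0.462). All of the GFP counts were in replicate 3, at 15.2 CPM, the library with 133000 CPM of B and plasma cell markers and 8970 CPM of microglia markers, and their part was not tested.

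The machinery around the receptor (heat shock chaperones, coactivators, corepressors and steroid-converting enzymes) had 16 of 18 genes tested and 0 passed with edgeR at either day (2 at day 14 and 4 at day 7 at an unadjusted p under 0.05). Its median was 0.08 at day 14 and 0.50 at day 7. DESeq2 and voom passed 0 at day 14. At day 7 DESeq2 passed 2, Hsp90ab1 higher and Ncor1 lower, and voom passed Hsp90ab1 alone. DESeq2 passed 7.17% and voom 2.87% of all genes at day 7. An unadjusted p under 0.05 was seen in 10.4% of all genes at day 14 and in 13.9% at day 7. Hsp90ab1, the constitutive heat shock protein 90, had Olig1 libraries above all GFP libraries at both days. Of all genes, 7.78% were separated in this direction at day 14 and 9.4% at day 7. Hsp90ab1 was not called on this ground. It stood at 1450, 2890 and 1150 CPM with Olig1, against 290, 628 and 921 CPM with GFP at day 14 (1.45 ± 0.60, adjusted p = 0.438), and at 4620, 6370 and 3400 CPM with Olig1, against 829, 1310 and 1700 CPM with GFP at day 7 (2.24 ± 0.62, adjusted p = 0.181). Neither passed in the edgeR fit used here, and without the filter on low counts the day 7 difference did (2.23, adjusted p = 0.0441). Ptges3, the p23 co-chaperone, had 2.14 ± 0.74 at day 7 (adjusted p = 0.262), and the corepressor Ncor1 had -1.77 ± 0.51 there (adjusted p = 0.200), with 154, 35.2 and 153 CPM in Olig1 libraries below 466, 364 and 357 CPM in GFP libraries. At day 14 the coactivator Ncoa2 had 1.62 ± 0.93 (adjusted p = 0.638). H6pd, which feeds the steroid-activating enzyme with its cofactor, had 0 counts with Olig1 and 145 with GFP at day 14, at least 40.1-fold lower (adjusted p = 0.455), and all 145 were in GFP replicate 3, at 6.05 CPM. Hsd11b1 and Hsd11b2, which activate and inactivate the hormone, had too few counts to test.

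Genes that switch SGK1 on or are acted on by it had 16 of 21 tested and 0 passed with edgeR at either day (2 at each day at an unadjusted p under 0.05), with medians of 0.62 at day 14 and -0.17 at day 7. DESeq2 passed 0 at day 14 and 2 at day 7, Ndrg1 and Ndrg2, both lower with Olig1, and voom passed 0 at both days. Of all genes, 10.4% at day 14 and 13.9% at day 7 had such an unadjusted p, and DESeq2 passed 7.17% at day 7. Sgk2 had 0 counts in every library, and the epithelial sodium channel subunits Scnn1a, Scnn1b and Scnn1g had 43, 7 and 3 counts in all. Ndrg2, a substrate abundant in glia, stood at 222, 163 and 194 CPM in Olig1 day 14 libraries, against 94.0, 51.0 and 54.4 CPM in GFP day 14 libraries. At day 7 the order was the other way, with 59.4, 23.1 and 83.0 CPM with Olig1, against 116, 501 and 204 CPM with GFP. The groups did not overlap at either day, and neither 1.53 ± 0.62 at day 14 (adjusted p = 0.438) nor -2.34 ± 0.64 at day 7 (adjusted p = 0.179) passed the test. Of all genes, 7.78% were higher in this way at day 14 and 9.01% lower at day 7. Ndrg1, the substrate most used as a readout of SGK1 activity, stood at 2.45, 0.957 and 4.80 CPM in Olig1 day 7 libraries, against 23.5, 205 and 28.1 CPM in GFP day 7 libraries (-5.06 ± 1.81, adjusted p = 0.268). At day 14 Ndrg1 stood at 194, 85.8 and 42.4 CPM with Olig1, against 0, 12.1 and 62.5 CPM with GFP (1.80 ± 1.57, adjusted p = 0.895). That value came to 4.25 without GFP day 14 replicate 3. Without the 4 libraries rich in microglia markers, which leaves GFP replicate 1 with 0 counts as the only GFP library, it passed (adjusted p = 0.0316). These are levels of RNA, not of phosphorylation. Nedd4, the close relative of Nedd4l, had 1.25 ± 0.54 at day 14 (adjusted p = 0.440), and Mlst8, a subunit of both mTOR complexes, had 4.84 ± 2.59 at day 7 (adjusted p = 0.423) on 235 counts against 10.

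**Figure D4:**
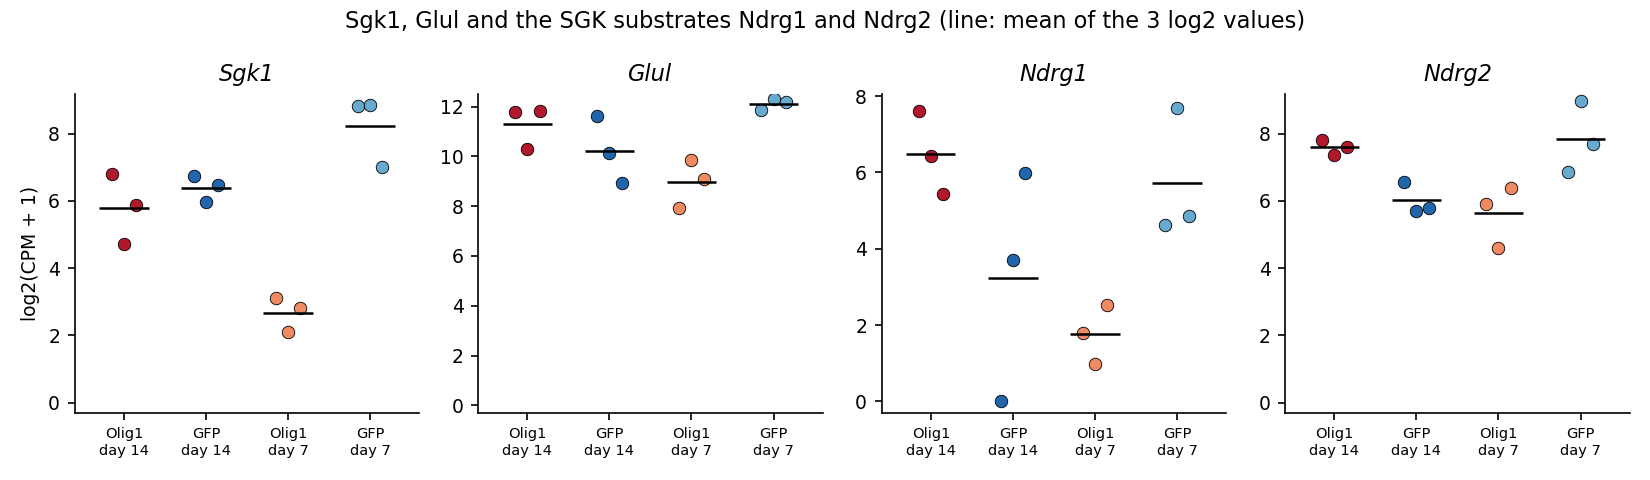
Sgk1, Glul, Ndrg1 and Ndrg2 as log2(CPM + 1) in the 12 libraries. Points are libraries, lines are the mean of the 3 log2 values, and groups run Olig1 day 14, GFP day 14, Olig1 day 7 and GFP day 7. In each panel all 3 Olig1 day 7 libraries lie below all 3 GFP day 7 libraries, as in 9.01% of all genes tested. At day 14 only Ndrg2 among the 4 genes has groups that do not overlap, with Olig1 higher, as in 7.78% of all genes. The genes shown were picked with their values known.

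Genes that control mTOR complex 1 alongside Ddit4, mostly brakes but also its activator Rheb and its subunit Rptor, had 14 of 15 genes tested and 0 passed with edgeR at either day (0 at day 14 and 4 at day 7 at an unadjusted p under 0.05), with medians of -0.06 at day 14 and -0.33 at day 7. DESeq2 passed 0 at day 14 and 2 at day 7, Deptor and Sesn1, both lower with Olig1, and voom passed 0 at both days. Of all genes, 10.4% at day 14 and 13.9% at day 7 had such an unadjusted p, and DESeq2 passed 7.17% at day 7. Deptor, an inhibitor of mTOR, stood at 0.652, 0.479 and 1.22 CPM in Olig1 day 7 libraries, against 9.59, 25.3 and 23.1 CPM in GFP day 7 libraries (-4.53 ± 1.83, adjusted p = 0.292). Sesn1, a sestrin that senses leucine, stood at 42.1, 8.54 and 16.1 CPM in Olig1 day 7 libraries, against 211, 166 and 49.2 CPM in GFP day 7 libraries (-2.64 ± 0.80, adjusted p = 0.219). Both were separated at day 7, as were 9.01% of all genes in this direction, and neither passed the edgeR test. Sesn3 had 2.53 ± 1.02 at day 7 (adjusted p = 0.290) through Olig1 replicate 2 at 675 CPM, and -0.61 without it. At day 14 Tsc2 had 2.30 ± 1.57 (adjusted p = 0.768), Deptor -2.39 ± 1.66 (adjusted p = 0.783) and Rheb, which TSC2 turns off, 0.98 ± 0.55 (adjusted p = 0.619).

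All 15 clock genes listed beside Per1 were tested and 0 passed with edgeR at either day (1 at day 14 and 2 at day 7 at an unadjusted p under 0.05), with a median of -0.20 at both days. DESeq2 passed 0 at day 14 and 1 at day 7, Hlf, higher with Olig1, and voom passed 0 at both days. Of all genes, 10.4% at day 14 and 13.9% at day 7 had such an unadjusted p, and DESeq2 passed 7.17% at day 7. Hlf, a PAR bZIP output factor of the clock, stood at 135, 227 and 86.2 CPM in Olig1 day 7 libraries, against 33.5, 18.8 and 37.3 CPM in GFP day 7 libraries. These did not overlap, as in 9.4% of all genes in this direction, and 2.76 ± 0.74 did not pass the test (adjusted p = 0.175). Nr1d1, the repressor REV-ERB alpha, had -1.83 ± 0.73 at day 7 (adjusted p = 0.290), and Cry2 had 1.04 ± 1.04 (adjusted p = 0.735). At day 14 Bhlhe40, a repressor that competes for E boxes, stood at 16.3, 53.4 and 15.6 CPM with Olig1, against 2.39, 13.9 and 3.26 CPM with GFP, again with no overlap (2.17 ± 0.98, adjusted p = 0.456). Such a separation was seen in 7.78% of all genes. Dbp and Nr1d2 had -0.98 ± 0.67 (adjusted p = 0.779) and -0.84 ± 0.60 (adjusted p = 0.804) at day 14. The labels give no hour of collection.

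In the day contrasts and the test of the difference between days, 0 genes of the 5 lists passed with edgeR. At an unadjusted p under 0.05, the 5 lists had 1 to 5 genes each in Olig1 pools, 0 to 3 in GFP pools and 1 to 4 in the test of the difference. Of all genes, 11.8%, 10.3% and 9.9% had such a p there, in the same order. DESeq2 passed 4 list genes in Olig1 pools (Hif3a and Ndrg1 higher at day 14, Cdkn1a and Hsp90aa1 lower) and 0 in GFP pools. In the test of the difference it passed 3 (Ndrg1, Ndrg2 and Cdkn1a). Its shares of all genes were 4.53%, 4.77% and 3.89%, in the same order. Voom passed Glul, higher, and Hsp90aa1, lower, in Olig1 pools and 0 elsewhere. Of the 14985 genes tested, voom passed 313 in Olig1 pools and 17 in GFP pools. Hsp90aa1, the stress-inducible heat shock protein 90, is named after its values were seen. It stood at 624, 629 and 825 CPM in Olig1 day 14 libraries, against 2540, 3710 and 2210 CPM in Olig1 day 7 libraries, with no overlap. The share of all genes separated in this direction was not counted, so the separation is a description. In GFP pools Hsp90aa1 stood at 708, 1200 and 380 CPM at day 14, against 2880, 1130 and 2050 CPM at day 7, which overlapped.

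**Figure D5:**
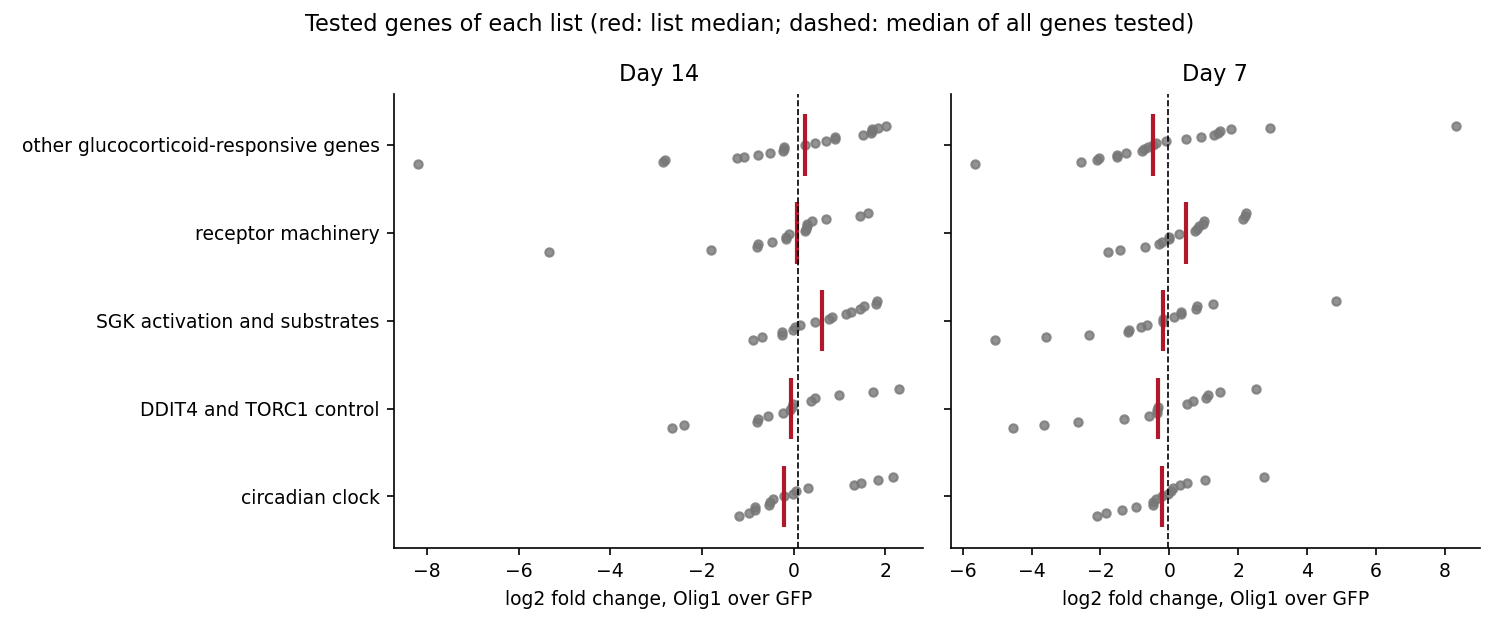
Log2 fold change, Olig1 over GFP, of each tested gene of the 5 lists at day 14 (left) and day 7 (right); the 2 panels have their own horizontal scale. Points are genes, red bars are list medians, and the dashed line is the median of all genes tested (0.09 at day 14 and -0.03 at day 7); genes with a group at 0 counts are drawn at their bound. List medians lie between -0.20 and 0.62 at day 14 and between -0.46 and 0.50 at day 7, with points on both sides of the dashed line in every list.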

How the data were processed

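The authors deposited raw read counts for each Ensembl gene, made with FastQC, HISAT2 and HTSeq on mm10, per the submitters' processing notes. Their versions, the gene annotation and the use of strand were not given in the sources used here. Counts were read from the table of the whole series, because the per-sample files of 4 libraries ended early, and 0 values differed where both held a gene. Symbols came from GENCODE M21, which matched 54165 genes, and 67 had none. Of the 9 genes, Nedd4l alone shares exon bases with another gene, 277 bases with A330084C13Rik on the opposite strand, which had 0 counts.

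The test was the robust quasi-likelihood test of edgeR 4.0.16 (R 4.3.3) with TMM scaling, after filterByExpr by group at a minimum of 10 counts, in 1 fit of all 12 libraries on the 4 groups with no covariate. The common biological coefficient of variation was 1.351. The labels speak of batches without assigning libraries to them, so batch could not enter a fit. SE is the log2 fold change over the square root of F. CPM used total counts as library size, and the likeness to Sgk1 a pseudocount of 1 CPM. Where a group had 0 counts, the fold is a bound from 3 counts over the group. The median log2 fold change of all genes moved by -0.16 (Olig1 pools) and -0.11 (GFP pools) in the day contrasts with DESeq2 size factors.

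The members and gene lists were chosen with earlier results of these data known. Named genes are the 9 members, every list gene past the edgeR threshold and the 3 with the smallest unadjusted p at each day, and the 5 genes most like Sgk1. Same-numbered libraries correlated at -0.063 to 0.045 in their deviations, and the main fit did not pair them. These correlations cannot settle whether replicate numbers mark pairs. Alternatives were DESeq2 1.42.0 (size factors, Wald test), limma 3.58.1 voom, no or a stricter filter, a replicate block, fewer groups, and libraries left out. The procedure was tested on simulated data. Figures used matplotlib 3.10.9.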

Additional observations from a re-analysis of the deposited data

Results flagged for a closer look

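For 3 genes the libraries of 1 comparison moved wholly one way and those of its counterpart wholly the other. In each case the direction was read from groups that did not overlap, and the test of the difference itself (edgeR interaction) did not pass. Of all 14985 genes tested, 0.587% had such opposite separations between the viruses at day 14 and day 7, and 0.694% between the days in Olig1 and GFP pools. Among the 35 genes looked at here, many of them named for their small p, there were 1 and 3, which is not a result about them.

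Sgk1 was higher at day 14 than at day 7 in every Olig1 library (110, 25.2 and 58.2 CPM at day 14, against 7.66, 3.27 and 6.08 CPM at day 7) and lower in every GFP library (105, 61.5 and 87.8 CPM at day 14, against 455, 463 and 128 CPM at day 7). The fitted difference of the log2 folds was 5.40 ± 0.98 (adjusted p = 0.264, range 5.71e-05 to 0.471 over 19 alternatives), and since Sgk1 was chosen from the day 7 libraries it is a description.

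Glul was higher at day 14 in every Olig1 library and lower in every GFP library. The log2 fold change between days was 2.14 ± 0.68 in Olig1 pools and -1.33 ± 0.67 in GFP pools, and their difference was 3.47 ± 0.95 (adjusted p = 0.341, range 0.0649 to 0.616 over 19 alternatives).

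Ndrg2 was higher with Olig1 than with GFP in every library at day 14 and lower in every library at day 7. Between the days it was 2.03 ± 0.63 in Olig1 pools and -1.84 ± 0.63 in GFP pools. The difference was 3.87 ± 0.89 (adjusted p = 0.341, range 0.00421 to 0.616 over 19 alternatives, of which the DESeq2 Wald test alone passed).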

How the results depend on the processing

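With 3 pools of few cells a group and a biological coefficient of variation of 1.351, the counts of genes past the threshold moved with the tool and the library, and the cause was not tested. At day 7 (34 genes, 1 member) there were 954 genes with DESeq2, 430 with limma voom and 218 with no filter, and 1 to 58 leaving out each library in turn. The member, Sgk1, was lost without GFP day 7 replicate 1, giving 0 to 1 members. Sgk1 was chosen from the day 7 libraries, so its calls at day 7, between the days and in the interaction are a description. At day 14 (6 genes, 0 members) there were 743 genes with DESeq2, 55 with voom, 23 with no filter, 2 with a stricter filter, 1 with the replicate block, 0 with only these groups, 176 without the 4 libraries rich in microglia markers (which leaves 1 GFP library, assumed to vary like the others) and 0 to 6 leaving out each library. In the Olig1 day contrast (5 genes, 0 members) there were 0 genes with DESeq2 size factors, 626 genes and 1 member (Sgk1) with DESeq2, 313 genes with voom, 59 genes and 1 member (Sgk1) with no filter, 2 with a stricter filter, 0 with only these groups, 15 without the 4 libraries and 0 to 10 leaving out each library. In the GFP day contrast (0 genes, 0 members) there were 646 genes and 1 member (Zbtb16) with DESeq2, 17 genes with voom, 13 with no filter and 145 without the 4 libraries. In the interaction (0 genes, 0 members) there were 527 genes and 1 member (Sgk1) with DESeq2, 40 genes and 1 member (Sgk1) with no filter, 1 gene with the replicate block, 127 without the 4 libraries and 0 to 1 leaving out each library.

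The log2 fold changes of members turned sign in 7 of 162 refits with 1 library left out and in 10 of 194 under other settings. These counts cover all 9 genes between the viruses and only chosen genes elsewhere. Those were Sgk1, Nedd4l, Fkbp5 and Zbtb16 between the days in GFP pools, and Sgk1, Ddit4 and Tsc22d3 in Olig1 pools. In the interaction Sgk1 alone was counted. At day 7 Sgk3 was 0.19 with voom, 0.33 with the replicate block and 1.70 without the 4 libraries, and -3.34 to 4.07 leaving out each library. Fkbp5 was -1.0 with voom and -1.61 with the block, and -2.66 to 4.10 leaving out each library, and Ddit4 was -3.66 to 0.29. At day 14 Sgk3 was -0.37 with the block and -1.43 to 6.29 leaving out each library, Fkbp5 was -0.83 with voom, -2.01 with the block and -5.49 to 7.81, and Tsc22d3 was 0.04 with voom, 8.01 without the 4 libraries and -0.83 to 1.16. Among list genes, Cebpb (-0.13 to 3.49) and Sesn3 (-0.61 to 3.08) at day 7 turned when libraries were left out, and at day 14 Sult1a1 (-10.17 to 1.98; 1.94 without the 4 libraries), H6pd (-9.37 to 0.00; 0.00 without the 4) and Deptor (1.12 without the 4) did. The mean CPM of all 9 genes in each group moved by less than 1 SD under TMM-scaled library sizes. Same-numbered libraries correlated at -0.063 to 0.045 in their deviations, and at day 7 each library correlated best with its own number, which is a hint from the data, not the design. The block changed no member's call. For the named list genes, Olig1 against GFP at day 14 and day 7, 13 values passed under an alternative and not in the edgeR fit reported. Most were with DESeq2 or voom at day 7, and Ndrg1 at day 14 came from the fit that leaves 1 GFP library. Hif3a at day 7, and list genes in the day contrasts and the interaction, are not in this count and are given above.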
